A study of Mus musculus with 63 samples.

Results

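Fos, Fosb, Fosl2, Jun, Junb and Jund encode the Fos and Jun proteins that pair to form the transcription factor AP-1. They were followed in dorsal hippocampus RNA as 6 of the 55401 genes in the deposited count table, found by matching the symbols to Ensembl identifiers in the GENCODE M21 annotation. All 6 passed the filter on low counts that left 19974 genes for testing. The remaining family gene, Fosl1, was not among the chosen symbols and was too low to test, with 0 to 7 counts per library, a median of 1 and 16 libraries at 0.

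The 63 libraries came from adolescent mice of the inbred strains DBA/2J and C57BL/6J, coded M or F for sex. The mice had been given ethanol at 1.5 g/kg (EtOH) or saline (SAL), with fear conditioning (FC) or without it (noFC). Strain, sex, drug and conditioning made 16 groups of 4 libraries each, except that the C57BL/6J M FC SAL group had 3. The labels carried no genetic modification and did not say which library came from which animal, so each library was treated as 1 mouse. Each title also held 1 of 16 running numbers and a letter, neither of which the labels explain, and the lower 8 numbers are named the first round here and the upper 8 the second. First-round letters were C and D for EtOH and A and B for SAL, and in the second round the drugs had the opposite letters. FC had letters A and C and noFC letters B and D in both rounds. Drug and letter within a round, and conditioning and letter throughout, cannot be told apart.

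Fos proteins cannot bind DNA alone and act as partners of Jun proteins, which can also pair with each other. In neurons, Fos transcription starts within minutes of calcium entry or growth factor signalling, through SRF with its Elk partners and through CREB, and the transcript is short-lived. Fosb, Junb and, more weakly, Jun belong to the same early wave, Fosl2 usually follows later, and Jund is expressed steadily. In the hippocampus, Fos is widely used as a marker of neurons that were active during learning.

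Since these early signals act at the promoter, the 150 bases before the RefSeq transcription start of the 4 members with a motif match are given, 5′ to 3′ on the gene's own strand (RefSeq, GRCm38.p6). Capitals mark matches, searched on both strands, to TGACG (the half-site of the CREB-binding element), to TATAAA (the TATA box) and to TGACATCA (an AP-1 site variant of the Jun promoter). The windows are chr12:85473740-85473889 on the plus strand for Fos, chr7:19310046-19310195 on the minus strand for Fosb, chr8:84978749-84978898 on the minus strand for Junb and chr4:95052223-95052372 on the minus strand for Jun.
Fos: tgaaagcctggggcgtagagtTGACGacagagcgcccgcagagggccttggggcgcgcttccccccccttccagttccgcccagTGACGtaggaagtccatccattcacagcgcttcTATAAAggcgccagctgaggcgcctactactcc
Fosb: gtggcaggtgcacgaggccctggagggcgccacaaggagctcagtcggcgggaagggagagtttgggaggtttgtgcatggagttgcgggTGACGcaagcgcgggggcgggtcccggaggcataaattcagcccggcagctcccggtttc
Junb: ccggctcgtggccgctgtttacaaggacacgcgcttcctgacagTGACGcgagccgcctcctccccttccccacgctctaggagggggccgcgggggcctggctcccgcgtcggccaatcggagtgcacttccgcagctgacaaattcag
Jun: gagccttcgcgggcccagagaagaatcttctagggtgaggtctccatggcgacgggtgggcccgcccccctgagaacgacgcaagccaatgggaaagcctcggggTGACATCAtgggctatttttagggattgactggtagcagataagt

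The Fos window held TGACG at 129 and at 66 bases before the start and TATAAA at 33 bases before it. Fosb held TGACG at 60 bases and Junb at 106 bases before the start, and Jun held TGACATCA at 45 bases before it. Among 32851 RefSeq promoter windows of the same length, 13.3% held TGACG, 7.57% held TATAAA and 2.32% held TGACATCA. The complete element TGACGTCA, held by 1.36% of the windows, and the AP-1 site TGACTCA, held by 2.84%, were in none of the 6 members' windows. CCAAT, left in lower case, was in the Jun and Junb windows and in 24.5% of all, and the CArG box bound by SRF was in no member's window and in 0.916% of all. The windows of Fosl2 and Jund held none of these motifs, but their RefSeq starts lie 671 and 1210 bases from the GENCODE starts. These are matches of letters in a short window of the reference genome, from which DBA/2J bases may differ, and say nothing about binding. Bases farther upstream were not searched, so a CArG box or other site there would be missed.

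On GRCm38, Fos (ENSMUSG00000021250) lies on chromosome 12 from 85473890 to 85477273, Fosb (ENSMUSG00000003545) on chromosome 7 from 19302696 to 19310051, and Fosl2 (ENSMUSG00000029135) on chromosome 5 from 32135801 to 32157842. Jun (ENSMUSG00000052684) lies on chromosome 4 from 95049034 to 95052222. Junb (ENSMUSG00000052837, 84974484 to 84978718) and Jund (ENSMUSG00000071076, 70698949 to 70700616) are both on chromosome 8. Jun and Jund overlap antisense genes, and Junb overlaps Prdx2 on the other strand. The library kit keeps strand, but whether the counting used it is not given in the sources used here, so reads in these overlaps cannot be told apart without that setting.

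Total gene counts ran from 21027659 to 61631742 per library, with a median of 26379948. All 8 markers of hippocampal fields and all 6 of neurons in the lists used here were detected. All 7 markers of choroid plexus and all 7 of thalamus and neocortex were detected as well. Detection alone therefore cannot tell the labelled tissue from its neighbours. The summed level of 7 choroid plexus markers, led by the transport protein gene Ttr, differed widely between libraries, from 30.6 to 11987 CPM (counts relative to the TMM-scaled library total). In bulk tissue, fewer cells of a type and less RNA per cell cannot be told apart, and that holds for every level below.

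Jund was the most abundant member per unit of length, and Fosb the least. On the scale of CPM per kilobase of the deposited gene length, the levels averaged 67.6 ± 6.07 for Jund, 39.4 ± 5.57 for Junb, 24.7 ± 2.70 for Jun, 9.73 ± 2.52 for Fos, 4.61 ± 0.748 for Fosl2 and 2.10 ± 0.540 for Fosb (SD, n = 63). Every one of the 63 libraries had this order. Jun stood 1.45 to 4.64 times above Fos, and the ranges of these neighbours did not overlap (19.1 to 31.2 for Jun and 5.21 to 18.0 CPM per kilobase for Fos). The other neighbours differed by at least 1.24 times within a library, although their ranges over all libraries overlapped. The deposited length of Junb, 1809 bases, is shorter than the 2301 bases of its M21 exons. Its level per kilobase, and its place above Jun in every single library, depend on that length.

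The 3 Fos genes had larger spreads within the groups than the 3 Jun genes. The standard deviation of log2 CPM within groups was 0.248 for Fosb, 0.237 for Fos and 0.211 for Fosl2, against 0.165 for Junb, 0.155 for Jun and 0.119 for Jund. Set against genes of like level, the Fos and Jun genes were interleaved. The share of such genes that varied less was highest for Fosl2, and it was 93.1% for Fos, 91.3% for Junb, 90.4% for Fosb, 89.4% for Jun and 72.0% for Jund. The plot of levels by library shows this spread in each combination of strain, drug and conditioning.

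**Figure D1:**
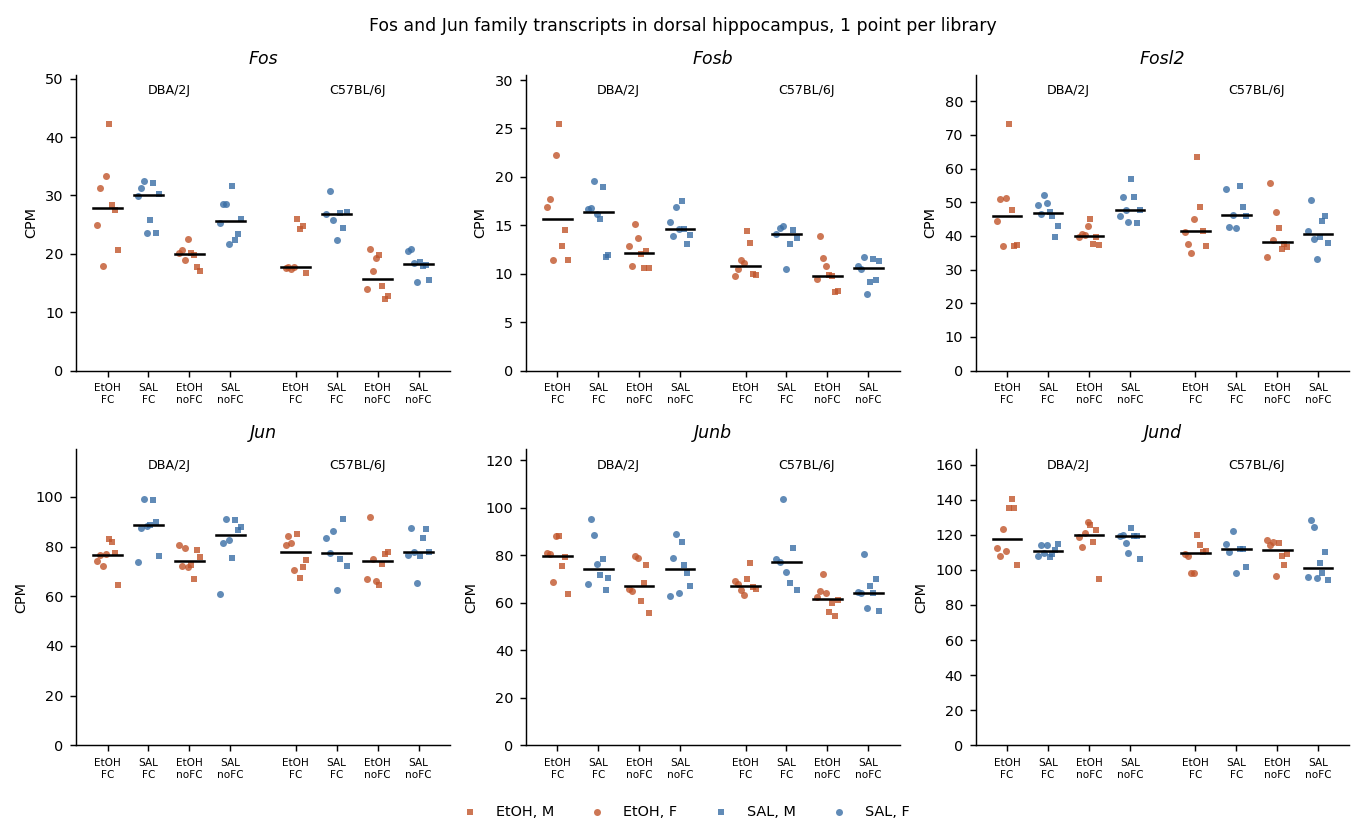
Levels of the 6 members in CPM, 1 point per library (squares M, circles F), by strain, drug and conditioning, with EtOH in orange, SAL in blue and a bar at each median. Fos ran from 12.3 to 42.3 CPM and Fosb from 7.87 to 25.5 CPM, both with their highest library in DBA/2J mice given FC and EtOH, while Jund stayed between 94.0 and 141 CPM.

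DBA/2J and C57BL/6J hippocampus were compared over both drugs and both conditioning states. Fos ran from 17.1 to 42.3 CPM with a median of 25.1 in 32 DBA/2J libraries, against 12.3 to 30.8 CPM with a median of 18.5 in 31 C57BL/6J libraries. Fosb, the Fos relative best known for a long-lived truncated protein, ran from 10.6 to 25.5 CPM with a median of 14.6 in DBA/2J, against 7.87 to 14.9 CPM with a median of 10.8 in C57BL/6J. Both genes stood higher in DBA/2J at the median, and the strains overlapped for both.

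The log2 difference of DBA/2J minus C57BL/6J was 0.35 (SE 0.058) for Fos, with edgeR adjusted p = 7.7e-07, and 0.40 (SE 0.062) for Fosb, with adjusted p = 2.1e-07. Junb, which can restrain the activity of Jun, was higher by 0.13 (SE 0.040, adjusted p = 0.0065) and Jund by 0.10 (SE 0.029, adjusted p = 0.0032). Fosl2 at 0.07 (95% interval -0.03 to 0.17) and Jun at 0.05 (95% interval -0.02 to 0.13) were not called, each with adjusted p = 0.26. So 4 of 6 members rose in DBA/2J, where 50% of all genes tested were called in either direction and 25.5% were called higher. The median log2 difference of the members was 0.11, against 0.01 over all genes. For both strains the processing notes name the same build, GRCm38, which is C57BL/6J sequence. The part of DBA/2J sequence variants in any strain difference given here was not tested.

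Markers of hippocampal fields also differed between the strains: 5 of 8 were lower and 1 was higher in DBA/2J, and their median log2 difference was -0.21. Their summed level was 751 to 1447 CPM (median 1200) in DBA/2J and 962 to 1459 CPM (median 1280) in C57BL/6J. The largest difference among them was that of C1ql2, at -1.46 (edgeR adjusted p = 4.8e-33). Since the markers themselves differed by strain, a fit with them as a covariate cannot fully tell strain and field markers apart. With the mean of these markers as a covariate, an alternative added after the data were seen, the strain difference was 0.09 for Fos (adjusted p = 0.32) and 0.07 for Jund (adjusted p = 0.18), and Fosl2 turned to -0.17 (adjusted p = 0.036). Within the second round alone, Junb (0.11, adjusted p = 0.25) and Jund (0.11, adjusted p = 0.092) were not called. Fosb was called in each of these alternatives, at 0.23 (adjusted p = 0.034) with the field covariate and 0.39 (adjusted p = 0.00051) in the second round. Junb with that covariate was 0.20 (adjusted p = 0.0049).

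The ethanol comparison set 32 libraries of mice given EtOH against 31 given SAL, over both strains and conditioning states. Fos ran from 12.3 to 42.3 CPM with a median of 19.8 in EtOH libraries, against 15.2 to 32.5 CPM with a median of 25.3 in SAL libraries. Most EtOH libraries were low, and the groups overlapped. On the log2 scale, Fos lay below the SAL mean of its own strain in 13 of 16 C57BL/6J and in 11 of 16 DBA/2J libraries given EtOH.

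Fos fell with ethanol, by 0.24 on the log2 scale (SE 0.058, edgeR adjusted p = 0.027), which is 0.846-fold. That made 1 of 6 members called lower, where 0.295% of all genes were called lower and 0.546% in either direction. Fosb (-0.13, adjusted p = 0.53), Fosl2 (-0.10, adjusted p = 0.61), Jun (-0.12, adjusted p = 0.20) and Junb (-0.09, adjusted p = 0.50) had negative differences that were not called, and Jund had 0.04 (adjusted p = 0.80). For Jun the unadjusted p was 0.0032 and the 95% interval ran from -0.19 to -0.04. Within the strains Jun was not called. In DBA/2J, Jun stood at 64.4 to 82.9 CPM (median 76.1) with EtOH and at 60.9 to 99.4 CPM (median 87.7) with SAL, and all 16 EtOH libraries lay below the SAL median (log2 difference -0.17, adjusted p = 0.18). In C57BL/6J it stood at 64.6 to 92.0 CPM (median 74.8) with EtOH and at 62.5 to 91.0 CPM (median 77.8) with SAL, and 11 of 16 EtOH libraries lay below the SAL median (-0.06, adjusted p = 1).

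In each round alone, Fos differed by -0.22 (adjusted p = 0.27, first round) and -0.27 (adjusted p = 0.31, second round) and was called in neither. Within 1 strain, Fos differed by -0.21 in DBA/2J (SE 0.080, adjusted p = 0.40) and by -0.27 in C57BL/6J (SE 0.083, adjusted p = 0.55). No member was called within a strain, where 0.295% of genes in DBA/2J and 0.0901% in C57BL/6J were. Unadjusted p was under 0.05 for Fos and Jun in DBA/2J and for Fos and Junb in C57BL/6J. The share of all genes under that unadjusted cut is not given here or below, so such counts have no background beside them. DESeq2 also called 0 members in either strain. The difference in the ethanol effect between strains was 0.07 for Fos (95% interval -0.16 to 0.29, adjusted p = 1), and 0 members were called for it, against 0.01% of genes, with 0 at an unadjusted p under 0.05 and 0 by DESeq2. Choroid plexus markers, which mark a tissue within the ventricles, had negative ethanol differences in 7 of 7 cases with a median of -0.26, none called. With the mean of these markers as a covariate, Fos differed by -0.24 (adjusted p = 0.013).

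**Figure D2:**
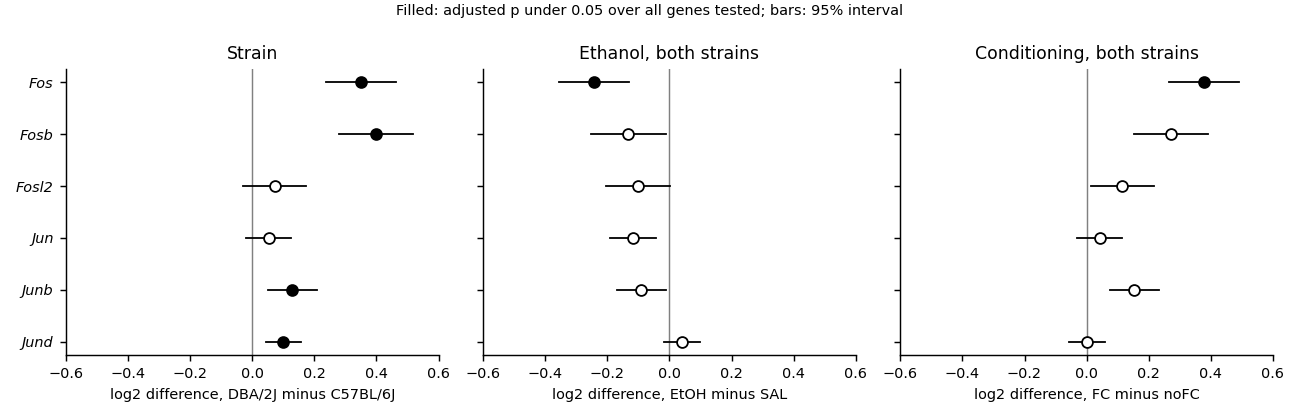
Log2 differences of the 6 members with 95% intervals for strain (DBA/2J minus C57BL/6J), ethanol (EtOH minus SAL) and conditioning (FC minus noFC), filled where called at an adjusted p under 0.05 over all genes. Fos is called in all 3 comparisons, at 0.35, -0.24 and 0.38, while Jund lies near 0 for ethanol and conditioning.

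Fos rose with fear conditioning. It ran from 16.7 to 42.3 CPM with a median of 25.8 in 31 FC libraries, against 12.3 to 31.5 CPM with a median of 19.8 in 32 noFC libraries. Fos lay above the noFC mean of its strain on the log2 scale in 14 of 16 DBA/2J and 14 of 15 C57BL/6J libraries with FC, and the groups overlapped. Against the noFC median, 2 of 16 DBA/2J and 5 of 15 C57BL/6J libraries with FC lay below. In C57BL/6J F mice given EtOH, Fos stood at 17.3 to 17.8 CPM (median 17.7) with FC and at 14.0 to 20.9 CPM (median 18.2) with noFC. Over both strains, the log2 difference of Fos was 0.38 (SE 0.058, edgeR adjusted p = 0.00048), or 1.30-fold, and its p was the smallest of all 19974 genes.

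Fosb and Junb had positive differences that did not pass the threshold. Fosb stood at 9.73 to 25.5 CPM (median 14.1) with FC and at 7.87 to 17.5 CPM (median 11.6) with noFC, a log2 difference of 0.27 (SE 0.061, unadjusted p = 5.07e-05, adjusted p = 0.15). Junb stood at 63.3 to 104 CPM (median 73.0) with FC and at 54.4 to 88.7 CPM (median 64.8) with noFC, a difference of 0.15 (SE 0.040, unadjusted p = 0.000383, adjusted p = 0.74). Their p-values were the 5th and 10th smallest of all genes. Fosl2 had 0.12 (95% interval 0.01 to 0.22), Jun 0.04 (-0.03 to 0.12) and Jund 0.00 (-0.06 to 0.06), each with adjusted p = 1. So 1 of 6 members rose with FC, where 0.02% of genes, all of them higher, were called.

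In the 2 rounds taken singly, the Fos difference was 0.40 (adjusted p = 0.28) and 0.35 (adjusted p = 0.98), and 0 members were called. Within the strains the difference was 0.34 in DBA/2J (SE 0.080, adjusted p = 1) and 0.42 in C57BL/6J (SE 0.083, adjusted p = 0.073), and 0% of genes were called in either. At an unadjusted p under 0.05, without the share of all genes beside it, there were 3 members in each strain, Fos, Fosb and Junb. DESeq2 called Fos in C57BL/6J (0.42, adjusted p = 0.017) and 0 members in DBA/2J. Leaving out any 1 of 7 libraries, named with the dependence on processing, also brought Fos in C57BL/6J under the threshold (adjusted p from 0.011 to 0.04). The conditioning effect differed between strains by -0.09 for Fos (95% interval -0.31 to 0.14) and by -0.02 for Fosb (-0.26 to 0.22), with 0 members and 0% of genes called, 0 members at an unadjusted p under 0.05 and 0 by DESeq2.

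Choroid plexus markers stood higher with conditioning, although none was called. All 7 had positive differences of FC minus noFC, with a median of 0.86 on the log2 scale. Their summed level was 30.6 to 10738 CPM (median 404) in FC libraries and 37.3 to 11987 CPM (median 115) in noFC libraries. With the mean of these markers as a covariate, the conditioning difference was 0.41 for Fos (adjusted p = 2.7e-05), 0.32 for Fosb (adjusted p = 0.0016) and 0.19 for Junb (adjusted p = 0.0033), so that 3 members were among the 7 genes called. Within C57BL/6J the covariate also brought Fos under the threshold (0.44, adjusted p = 0.015).

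**Figure D3:**
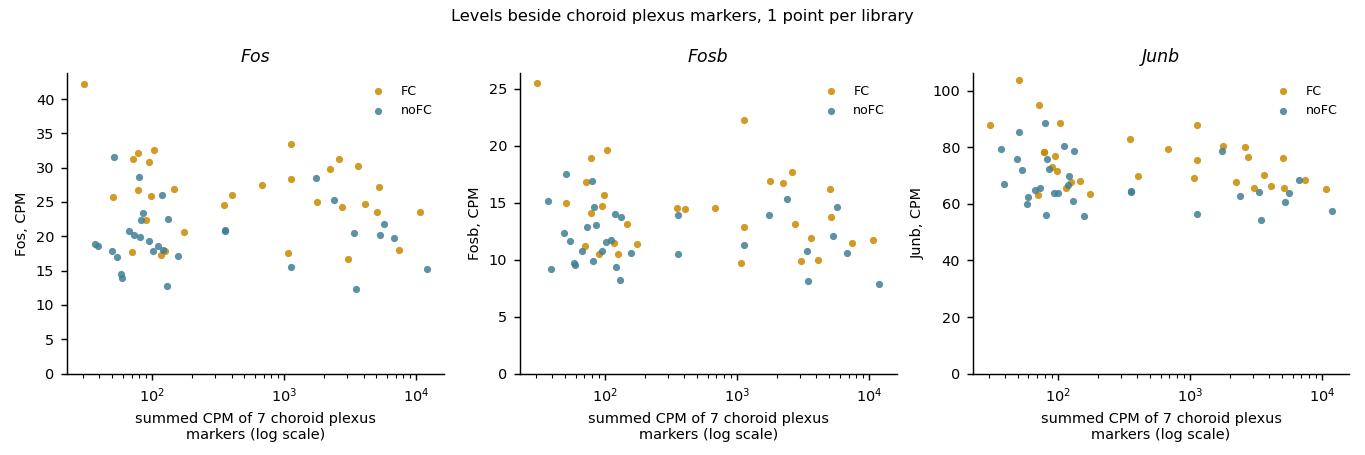
Levels of Fos, Fosb and Junb in CPM against the summed CPM of 7 choroid plexus markers on a log scale, 1 point per library, FC in yellow and noFC in blue. The marker sum spans 30.6 to 11987 CPM, and the FC median of the sum, 404 CPM, is above the noFC median of 115 CPM.

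Within the groups, several members varied with marker lists. Over 63 libraries with the 16 group means removed, 36 relations between 6 members and 6 lists were computed, and permutation p-values were adjusted over them. The r farthest from 0 was that of Junb with the choroid plexus markers, -0.55 (rho = -0.55, adjusted p = 0.0027 for each), which was -0.52 without the 2 farthest libraries and -0.50 and -0.76 by round. Fosb had r = -0.48 with the same markers (rho = -0.49, adjusted p = 0.0027 and 0.0036), which was -0.46 without the 2 farthest and -0.32 and -0.53 by round. So libraries with more choroid plexus RNA than others of their group tended to have less Junb and Fosb, the 2 members that the choroid plexus covariate brought under the threshold for conditioning.

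The r of Fos was 0.52 with 7 thalamus and neocortex markers (rho = 0.55, adjusted p = 0.0037 and 0.0027) and -0.53 with the hippocampal field markers (rho = -0.48, adjusted p = 0.005 and 0.0077). Without the 2 farthest libraries these became 0.54 and -0.44, and by round they were 0.33 and 0.65, and -0.69 and -0.30. Fosl2 had r = -0.54 with the field markers (rho = -0.37, adjusted p = 0.0091 and 0.055), which became -0.39 without the 2 farthest libraries, and -0.70 and -0.15 by round. Fosl2 had r = 0.38 with the thalamus and neocortex markers (adjusted p = 0.035), Fosb and Jun had 0.44 and 0.45 with the neuronal markers (adjusted p = 0.0051 and 0.022), and Junb had -0.47 with the endothelial and meningeal markers (adjusted p = 0.0091). Fos was called for conditioning (0.33, adjusted p = 0.00036) and ethanol (-0.28, adjusted p = 0.00058) with the field covariate, and likewise with the thalamus and neocortex covariate (0.36, adjusted p = 5.4e-05, and -0.27, adjusted p = 0.0019), alternatives added after the data were seen.

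Splitting the mice by strain, drug and conditioning at once showed where Fos was high. In DBA/2J with FC, Fos stood at 18.0 to 42.3 CPM (median 27.9) with EtOH, against 23.5 to 32.5 CPM (median 30.0) with SAL. In DBA/2J with noFC it stood at 17.1 to 22.5 CPM (median 19.9) with EtOH, against 21.7 to 31.5 CPM (median 25.7) with SAL. EtOH and SAL libraries overlapped widely with FC, and with noFC only between 21.7 and 22.5 CPM.

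In C57BL/6J with FC, Fos stood at 16.7 to 26.0 CPM (median 17.8) after EtOH, against 22.4 to 30.8 CPM (median 26.8) after SAL. In C57BL/6J with noFC it stood at 12.3 to 20.9 CPM (median 15.8) after EtOH, against 15.2 to 20.8 CPM (median 18.3) after SAL. The medians stood further apart with FC than with noFC, and the groups overlapped in both.

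As log2 differences of EtOH minus SAL, Fos had -0.02 in DBA/2J with FC (95% interval -0.24 to 0.20), -0.40 in DBA/2J with noFC (-0.62 to -0.18), -0.39 in C57BL/6J with FC (-0.62 to -0.16) and -0.16 in C57BL/6J with noFC (-0.39 to 0.07). For FC minus noFC, Fos had 0.53 in DBA/2J given EtOH (0.30 to 0.75), 0.14 in DBA/2J given SAL (-0.08 to 0.36), 0.31 in C57BL/6J given EtOH (0.08 to 0.53) and 0.54 in C57BL/6J given SAL (0.30 to 0.77). None of these differences was called. For ethanol, 0.0401%, 0.03%, 0.01% and 0.00501% of genes were called in the 4 combinations, and for conditioning 0% in each. In the same combinations Fosb had 0.06, -0.30, -0.28 and -0.02 for ethanol, and 0.44, 0.08, 0.15 and 0.41 for conditioning. In these combinations the median difference of the choroid plexus markers was -0.91, 0.40, 0.82 and -1.30 for ethanol, and 0.95, 2.42, 1.13 and -1.07 for conditioning. That of the hippocampal field markers was -0.14, 0.05, -0.02 and -0.05 for ethanol, and -0.18, 0.05, -0.04 and -0.04 for conditioning, and the part of either list in the Fos differences was not tested.

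The test of that arrangement, the difference between strains in how the ethanol effect depended on conditioning, gave 0.61 for Fos (95% interval 0.16 to 1.06, unadjusted p = 0.0103) and 0.62 for Fosb (0.14 to 1.10, unadjusted p = 0.0149). Both had adjusted p = 0.95, and 0 members and 0% of genes were called, so this difference did not pass the threshold. It was fitted by edgeR alone, and Fos and Fosb were the 2 members with an unadjusted p under 0.05. The choroid plexus markers had negative values in the same test in 7 of 7 cases (median -3.66), as had the hippocampal field markers in 8 of 8 (median -0.20), and their part in it was not tested. Over both strains, the ethanol effect differed between FC and noFC by 0.08 for Fos (95% interval -0.15 to 0.30, adjusted p = 1) and by 0.05 for Fosb (-0.19 to 0.29), with 0 members and 0% of genes called, 0 members at an unadjusted p under 0.05 and 0 by DESeq2. In DBA/2J mice with FC and EtOH, the library titled DBA_M_FC_EtOH_312_C held the highest value of all 63 for Fos (42.3 CPM), Fosb (25.5 CPM) and Fosl2 (73.3 CPM).

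**Figure D4:**
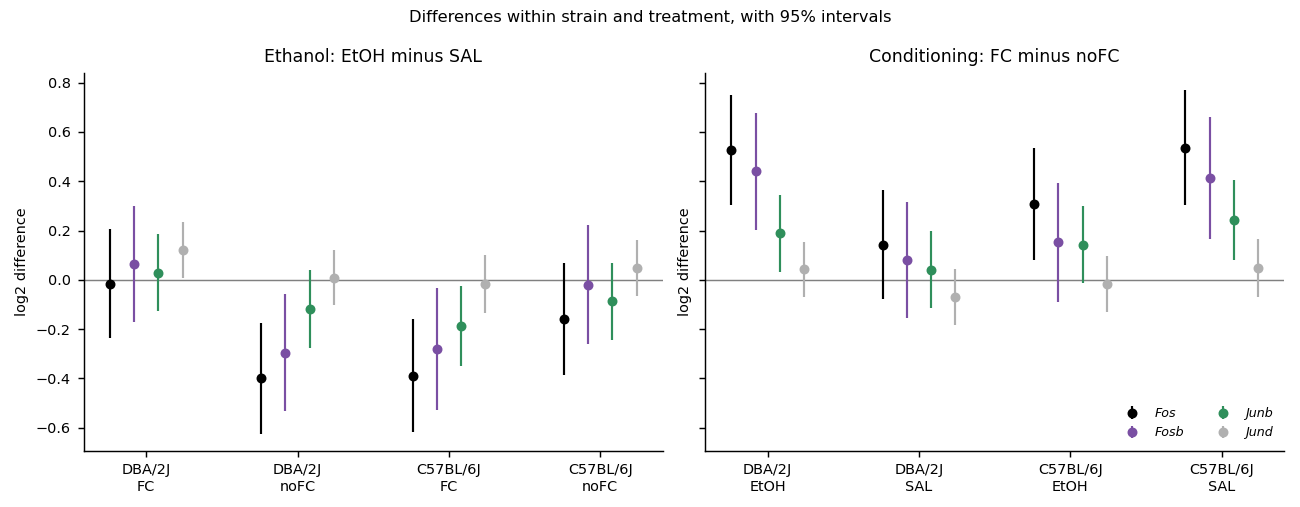
Log2 differences of Fos, Fosb, Junb and Jund with 95% intervals, for ethanol (EtOH minus SAL, left) and conditioning (FC minus noFC, right) within each combination of strain and the other treatment. Fos ranges from -0.40 to -0.02 for ethanol and from 0.14 to 0.54 for conditioning, and none of these differences was called over all genes.

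The strain difference was also taken within each combination. DBA/2J minus C57BL/6J was 0.49 for Fos in FC mice given EtOH (adjusted p = 0.00053), 0.12 in FC mice given SAL (adjusted p = 0.52), 0.27 in noFC mice given EtOH (adjusted p = 0.073) and 0.52 in noFC mice given SAL (adjusted p = 0.00034). Fosb had 0.56, 0.22, 0.27 and 0.55 in the same order, and was called in the first and the last. Jund was called in FC mice given EtOH, at 0.16 (adjusted p = 0.039). In these 4 combinations 25.6%, 23.2%, 26.3% and 27.9% of all genes were called.

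No member was called between the sexes. Fos ran from 12.3 to 42.3 CPM (median 23.4) in 31 M libraries and from 14.0 to 33.4 CPM (median 21.3) in 32 F libraries, a log2 difference of -0.01 (95% interval -0.12 to 0.10). Junb had the smallest unadjusted p, 0.0265, at -0.09 (-0.17 to -0.01). That made 1 member at an unadjusted p under 0.05 and 0 called, against 0.2% of genes, and DESeq2 also called 0. The conditioning effect on Fos was 0.24 higher in M than in F (95% interval 0.01 to 0.46, unadjusted p = 0.0445). That on Jund was 0.12 higher (0.01 to 0.23, unadjusted p = 0.0459). Each had edgeR adjusted p = 0.26, and 0% of genes were called. The share of all genes with an unadjusted p this small is not given, so neither difference is shown to be particular to the members.

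Ratios between members test whether they responded to the same degree. The log2 ratio of Fos to Fosb was 0.85 ± 0.20 in FC and 0.74 ± 0.19 in noFC libraries, and 0.74 ± 0.20 in EtOH and 0.85 ± 0.19 in SAL libraries (SD). Permutation tests within strain, sex and the other treatment compared all 15 ratios for both treatments, with p adjusted over the 30 comparisons. Conditioning raised Fos relative to every other member, by 0.12 over Fosb (adjusted p = 0.027), 0.22 over Junb (adjusted p = 0.0016), 0.26 over Fosl2 (adjusted p = 0.00015), 0.33 over Jun (adjusted p = 0.00045) and 0.37 over Jund (adjusted p = 0.00015).

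Ethanol lowered Fos relative to Fosb (-0.11, adjusted p = 0.036), Fosl2 (-0.14, adjusted p = 0.0041), Junb (-0.17, adjusted p = 0.0089) and Jund (-0.29, adjusted p = 0.0002). Relative to Jun the ratio moved by -0.14 (adjusted p = 0.077). All 5 other members fell relative to Jund with ethanol. Within the Jun genes, conditioning raised Junb over Jund by 0.15 (adjusted p = 0.00055) and lowered Jun relative to Junb by 0.11 (difference -0.11, adjusted p = 0.025). The Fos ratios use the same libraries as the comparisons above and are not separate evidence for a change of Fos.

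Within groups the Fos genes varied together. Over 63 libraries with group means removed, Fos and Fosl2 had r = 0.73 and rho = 0.65, Fos and Fosb r = 0.70 and rho = 0.55, and Fosb and Fosl2 r = 0.68 and rho = 0.55 (permutation adjusted p from 7.5e-05 to 0.00056 over 15 pairs, where 7.5e-05 comes from 1e-05, the smallest p the permutations can give). Without the 2 libraries farthest from the median of the first gene, r was 0.66, 0.61 and 0.58. By round, r was 0.68 and 0.73 for Fos and Fosl2, 0.72 and 0.69 for Fos and Fosb, and 0.71 and 0.52 for Fosb and Fosl2.

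Fos and Jun, the classical AP-1 pair, varied together little, with r = 0.18 and rho = 0.12 (adjusted p = 0.21 and 0.40). Junb had r = 0.55 and rho = 0.53 with Fosb (adjusted p = 0.00022 and 0.00056), 0.23 in the first round and 0.72 in the second, and 0.50 without the 2 farthest libraries. With Jund, Junb had r = 0.52 and rho = 0.48 (adjusted p = 0.00078 and 0.0013), 0.46 without the 2 farthest, but 0.03 in the first round and 0.76 in the second, so the value rests on the second round. Of the 15 pairs, 11 had adjusted p under 0.05 for r, and 4 did not, which were Jund with each Fos gene and Fos with Jun.

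**Figure D5:**
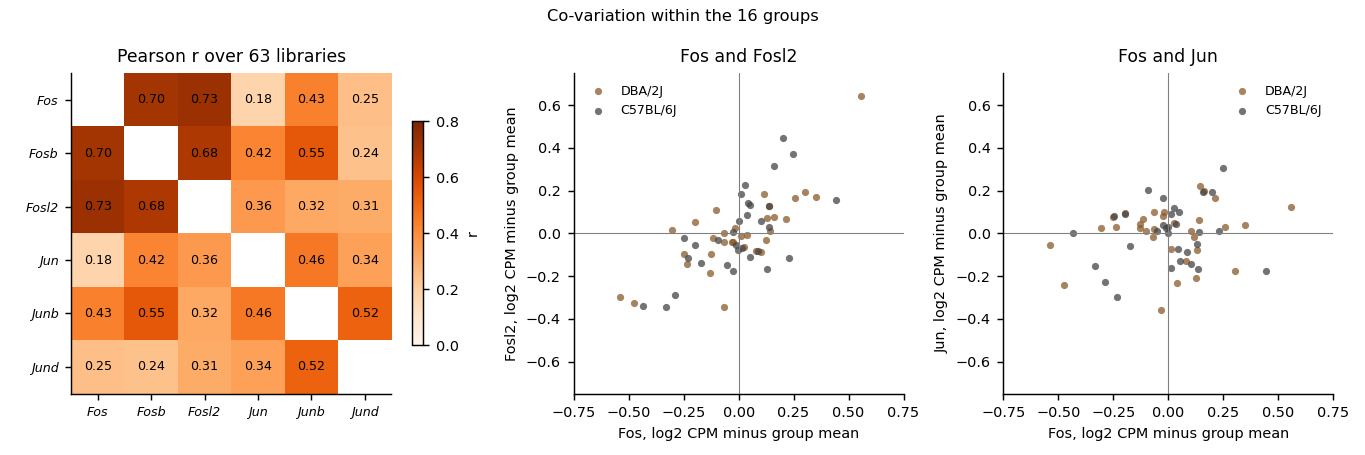
Pearson r of log2 CPM between members over 63 libraries with the 16 group means removed (left), and the library values behind Fos with Fosl2 (centre) and Fos with Jun (right), in brown for DBA/2J and grey for C57BL/6J. Fos and Fosl2 rise together (r = 0.73), while Fos and Jun form a loose cloud (r = 0.18).

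Among 15841 named genes, those whose values within groups were most like Fos were Cit (r = 0.754), Garnl3 (0.753), Kcnf1 (0.733), Ptprt (0.731) and Brinp3 (0.721). Fosb was most like Atp8b2 (0.768), Fosl2 most like St3gal1 (0.869), Jun most like Trappc9 (0.779) and Jund most like Pcsk1n (0.813). The 5 most like Junb were Nab2 (0.767), Tmem198 (0.739), the early genes Nr4a1 (0.738) and Egr4 (0.734), and Klc1 (0.734). These values describe 63 libraries that share dissection and depth, and the median r of all genes with each member lay between -0.04 and -0.01.

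The transcript table, which gives estimated counts per transcript, separated the forms of Fosb. The short form, in which a 140-base intron on chromosome 7 from 19305007 to 19305146 is removed, encodes the truncated protein deltaFosB, known for its stability. The 2 annotated transcripts of this form made up 0 to 19.6% of the Fosb estimated counts per library (median 3.79%, mean 4.47 ± 4.35%, SD, n = 63), and 14 libraries were listed at 0. The share was 5.48 ± 5.42% in EtOH and 3.43 ± 2.54% in SAL libraries (SD), a difference of 2.02 percentage points (permutation p = 0.073, adjusted over 3 comparisons 0.22). It was 4.14 ± 3.62% in DBA/2J and 4.81 ± 5.03% in C57BL/6J (adjusted p = 0.80), and 4.32 ± 4.05% in FC and 4.61 ± 4.68% in noFC (adjusted p = 0.80). In all, 1118 of 23136 estimated Fosb counts over all libraries came from these transcripts, so the share was measured with little precision. The estimates also moved between near-identical transcripts. The full-length Fosb transcript had a mean share of 89.2% but 31.8% in 1 library, and in 1 library another transcript had 63.3%.

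A single transcript carried most of the counts of the other Fos genes, at 96.2 ± 1.78% for Fos and 98.6 ± 1.14% for Fosl2 (SD, n = 63). At the transcript filter of 5% of a gene, no member had the 2 transcripts that a usage test needs, where 25.6%, 1.89% and 0.565% of 9564 genes were called for strain, ethanol and conditioning. At 1%, Fos with 2 transcripts and Fosb with 4 could be tested and neither was called in the same 3 comparisons, where 27.4%, 2.65% and 1.37% of 11676 genes were. The lowest unadjusted p was 0.0574, for Fosb with ethanol.

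Several other genes of the early wave also changed. Their list and those below were chosen with earlier results of these data known. The shares called therefore describe the lists and are not tests of them. Of 14 rapid early genes outside the family, 2 rose with conditioning, where 0.02% of all genes did. They were Arc, a synaptic regulator, by 0.27 (SE 0.052, adjusted p = 0.013) and Btg2, which slows cell division, by 0.14 (SE 0.026, adjusted p = 0.007). All 14 had positive differences with a median of 0.13, where 51.1% of all genes were positive and the median was 0.00. Of the 14, 10 had an unadjusted p under 0.05, and the share of all genes under that cut is not given. With ethanol 4 of the 14 fell, where 0.295% of all genes did. They were Arc (-0.47, adjusted p = 2.3e-08), Egr2 (-0.45, adjusted p = 0.00034), Egr1 (-0.24, adjusted p = 0.0046) and Nr4a1 (-0.19, adjusted p = 0.027). Btg2 rose with ethanol by 0.11 (adjusted p = 0.027), opposite to Fos, so that 5 of 14 were called where 0.546% of all genes were, and the list's median was -0.12. In the strain comparison 6 of the 14 rose and 1 fell in DBA/2J, a share called that equals the 50% of all genes. They included Npas4 at 0.50 (adjusted p = 3.8e-13), Egr2 at 0.47 (adjusted p = 5.1e-07), Dusp1 at 0.20 (adjusted p = 0.0013) and Egr3 at -0.14 (adjusted p = 0.0025).

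None of the genes listed as partners or regulators was called with the treatments. Of 12 tested genes for partners of Fos and Jun proteins and of 24 for regulators of their transcription, 0 were called with conditioning or ethanol by the edgeR test above. At an unadjusted p under 0.05 there were 4 partners and 1 regulator with ethanol, and 1 partner and 0 regulators with conditioning. Between the strains 8 of the 12 partners and 11 of the 24 regulators were called, beside 50% of all genes. Among the partners 4 rose and 4 fell in DBA/2J, and the smallest p-values belonged to Atf4 at -0.23 (adjusted p = 6.1e-16), Batf3 at -0.59 (adjusted p = 6.4e-07), Mafg at 0.11 (adjusted p = 3e-06) and Mafk at -0.17 (adjusted p = 4.5e-06). Among the regulators 4 rose and 7 fell. Those with the smallest p-values were Camk4, a kinase that activates CREB, at 0.79 (adjusted p = 7.3e-26), the kinase gene Rps6ka2 at -0.48 (adjusted p = 7.6e-16), Srf, the factor that binds the Fos promoter, at 0.16 (adjusted p = 5.6e-06) and the transcription factor gene Mef2a at -0.16 (adjusted p = 1e-05). Of 10 tested genes reported as AP-1 targets, 1 fell with ethanol, the deacetylase gene Sirt1 (-0.10, adjusted p = 0.039), where 0.295% of all genes fell. With conditioning 0 were called, with 0 at an unadjusted p under 0.05. Between the strains 3 of the 10 targets were called, beside 50% of all genes. Penk, which encodes enkephalin, and Calb1, which encodes the calcium-binding protein calbindin, rose in DBA/2J by 0.36 (adjusted p = 1.4e-09) and 0.13 (adjusted p = 0.003), and the neuronal kinase gene Cdk5 had -0.15 (adjusted p = 8.8e-09).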

How the data were processed

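Dorsal hippocampus RNA in 63 libraries was measured as read counts per gene and as estimated counts per transcript. The authors deposited the gene counts as whole numbers, and the deposited estimated counts per transcript need not be whole and were rounded for the usage test. The submitters' processing notes name DESeq2, Salmon, featureCounts, HISAT2 and fastp and the build GRCm38, and versions are not given in the sources used here. Per the labels' protocols, libraries were stranded poly(A) libraries read from one end.

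Symbols and positions came from GENCODE M21 by Ensembl identifier, and promoters from RefSeq. Genes were filtered with filterByExpr (minimum count 10) and scaled with TMM, and log2 CPM used a prior count of 2. Differences were tested with edgeR 4.0.16 (quasi-likelihood, two-sided, 16 group coefficients, equal weights over the factors not compared), adjusted by Benjamini and Hochberg over 19974 genes and called at an adjusted p under 0.05. SE is the absolute log2 difference over the square root of F, and 95% intervals are 1.96 SE to either side. Each library was treated as 1 mouse. The labels do not say so, and if some libraries share a mouse the p-values measure partly technical spread. Ratios, transcript shares and correlations were tested with 100000 permutations within groups or within the other factors, and transcript usage with limma 3.58.1 (transcripts with 10 counts in 3 libraries and 5% of their gene). The lowest count in a library was 209 for Fosb and 307 for Fos, and counting error was not separated from other spread within groups. The models were tested on simulated data.

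Alternatives were other scaling, no filter, DESeq2 1.42.0, gene sums of transcript counts, each strain or round alone, a replicate block, choroid plexus, thalamus and neocortex or hippocampal field covariates (the last 2 added after the data were seen) and leaving out each library. Fits without a library reused the genes tested and the dispersion trend of the fit to all libraries. The members and lists were chosen with earlier results of these data known. Named genes were the 6 members, at most 4 called genes per list and main comparison by smallest p, up to 5 genes most correlated with each member, and Fosl1. List members not tested were Batf, Batf2, Timp1 and Mmp3.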

Additional observations from a re-analysis of the deposited data

Results flagged for a closer look

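Among 90 tests of a group and a member for a library far from the others, of which chance alone passes about 1 in 20, 2 passed, both for Jund. In C57BL/6J F noFC mice given EtOH, the library titled B6_F_noFC_EtOH_323_B had 96.7 CPM of Jund, against 114 to 117 CPM in the other libraries of the group. In DBA/2J M FC mice given EtOH, the library titled DBA_M_FC_EtOH_324_A had 103 CPM of Jund, against 135 to 141 CPM in the others. In each the gap to the nearest library was 0.853 of the whole range of the group. For 6 further tests the group had 3 libraries and was too small.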

How the results depend on the processing

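The strain comparison called 4 members and ethanol over both strains 1 in all 63 fits that left out 1 library, and conditioning over both strains called 1 to 2, the second being Fosb without DBA_F_FC_EtOH_321_A (0.29, adjusted p = 0.035). Conditioning in C57BL/6J called 0 to 1 members. Fos was that member without any 1 of B6_M_noFC_EtOH_310_D, B6_F_noFC_SAL_311_B, B6_F_noFC_EtOH_315_D, B6_M_FC_EtOH_322_A, DBA_M_FC_EtOH_312_C, DBA_F_FC_EtOH_321_A and DBA_M_FC_EtOH_324_A (0.42 to 0.46, adjusted p = 0.011 to 0.04). It was also called there with each strain fitted alone (1 member), the choroid plexus, thalamus and neocortex or field covariate (1 each) and DESeq2 (1). Ethanol in C57BL/6J called 1 with the field covariate (Fos, -0.31, adjusted p = 0.048). Over both strains, ethanol and conditioning called 0 members in either round, conditioning called 3 with the choroid plexus covariate, and strain called 2 in the second round. A single round holds fewer libraries, and the cause of these changes was not tested.

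Signs turned only for differences that were not called in the main fit. With the field covariate, the turned strain difference of Fosl2 was itself called. Without 1 library the ranges were -0.039 to 0.0075 for Fos by sex, -0.101 to 0.016, -0.023 to 0.088 and -0.044 to 0.073 for Fosb in conditioning by strain, ethanol by conditioning and ethanol by strain, and -0.106 to 0.0054 and -0.014 to 0.038 for Fosl2 in ethanol by strain and sex. For Jun they were -0.0035 to 0.052 (conditioning in C57BL/6J), -0.029 to 0.021 (ethanol by conditioning) and -0.001 to 0.028 (sex), and for Junb -0.0017 to 0.058 (ethanol by conditioning). For Jund they were -0.0091 to 0.013, -0.0014 to 0.035 and -0.035 to 0.0091 (conditioning, over both strains, in C57BL/6J and in DBA/2J), -0.003 to 0.032 (ethanol in C57BL/6J) and -0.0021 to 0.019 (sex). In the first round, ethanol by strain was -0.058 for Fosb, 0.027 for Fosl2 and -0.016 for Junb, conditioning -0.0042 for Jund, conditioning by strain 0.137 for Fosb, ethanol by conditioning 0.049 for Jun, and sex 0.053 for Fos, 0.036 for Fosb and -0.0018 for Jun. In the second, ethanol in C57BL/6J was -0.034 for Jund, conditioning -0.008 for Jun, conditioning in C57BL/6J -0.0011 for Jund, in DBA/2J -0.029 for Jun and 0.0061 for Jund, by strain -0.043 for Jun and 0.0072 for Jund, ethanol by conditioning -0.029 for Fosb, -0.114 for Fosl2, -0.107 for Junb and -0.017 for Jund, and sex -0.074 for Fosl2 and -0.016 for Jund. With the choroid plexus covariate, conditioning by strain was 0.01 for Fosb and ethanol by conditioning 0.02 for Jun. With the thalamus and neocortex covariate, conditioning was -0.0014 for Jund and ethanol by conditioning 0.0004 for Jun, which was 0.0014 with no filter. With the field covariate, strain was -0.168 for Fosl2, conditioning -0.0031 for Jund, ethanol by conditioning -0.0061 for Fos, -0.013 for Fosb and 0.0036 for Jun, and sex -0.04 for Fosl2.

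Over both strains, ethanol called 109 genes, against 66 with no filter and 11 and 34 in the rounds. In DBA/2J it called 59, against 33 with no filter, 27 in that strain alone, 15 in the second round, 109 with the replicate block and 103 by DESeq2, and in C57BL/6J 18, against 0 and 1 in the rounds. Conditioning called 4, against 0 in either round and 7 with the choroid plexus covariate. Transcript usage at 1% of the gene called 309 genes for ethanol and 160 for conditioning, against 181 and 54 at 5%. The title numbers were not shown to pair libraries: in 93 same-numbered pairs r ran from -0.68 to 0.656 (median 0.0734), and 6 of 63 libraries correlated best with one of their own number. With the replicate block, ethanol called 1 member (Fos, 155 genes) and conditioning 1 (Fos, 4 genes), and strain and sex could not be fitted.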
